A study of Mus musculus with 16 samples.

Results

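The GFP-high and GFP-mid fractions of cultured mouse male germline stem cells were compared gene by gene. Both are FACS-sorted gates of cells that carry EGFP under the promoter of Pou5f1 (Oct4). The members are the 2 libraries whose labels name these gates, out of 12 RNA libraries and 16 samples in the series. The 4 remaining samples are ATAC-seq libraries, which were not analysed here. With 1 library in each RNA group, the spread between replicates is unknown, so differences are described and not tested.

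The 3 sorted libraries, GFP-low, GFP-mid and GFP-high, come from the same mouse line, B6;CBA-Tg(Pou5f1-EGFP)2Mnn/J, an age at isolation of postnatal day 5.5, and a culture on Matrigel, a basement membrane extract, at 10 µg/cm2. Germ cells that were positive for the Oct4 reporter and negative for KIT were isolated first and then grown in serum-free StemPro-34 medium with the growth factors GDNF, bFGF and EGF, with weekly passage. All cells therefore carried the transgene, and the gates are defined by the brightness of its product. The labels give no gate boundaries and do not say whether the fractions came from 1 culture. RNA was amplified by a modified Smart-seq2 method for small inputs. The 9 other RNA libraries are from unsorted cultures of the same strain and age. They cover cells on mouse embryonic fibroblast (MEF) feeders, cells 4 and 9 days after transfer to Matrigel, cells on Matrigel at 0.1 µg/cm2 (labelled EL) and at 10 µg/cm2 (labelled ML), and feeder cultures given DMSO or 0.5, 1 or 2 µM UNC0638, an inhibitor of the histone methyltransferase G9a. They are used here for levels only.

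Spermatogonial stem cells renew themselves under GDNF, which acts through its co-receptor GFRA1 and the receptor kinase RET. Their progeny pass through progenitor states marked by NEUROG3 and SOX3. Retinoic acid then induces the differentiating state, in which KIT and STRA8 appear. Pou5f1 encodes a transcription factor of pluripotent and germ cells and is expressed in undifferentiated spermatogonia. Macrophages are resident cells of the testis and are marked by the complement subunits C1QA, C1QB and C1QC and by the receptor CSF1R.

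Pou5f1 itself checks the labels. It stood at 83.9 CPM (counts scaled to the library total) in the GFP-low, 176 in the GFP-mid and 367 in the GFP-high library, and at 43.5 to 77.0 CPM in the 9 unsorted libraries. The order follows the gates. GFP-high was above every other library, and GFP-low and GFP-mid were also above every unsorted one. Per length, the deposited levels were 249.8 and 554.8 TPM (the deposited length-scaled unit) in GFP-mid and GFP-high. The ratio of GFP-high to GFP-mid was 2.08-fold, or 1.05 on the log2 scale of CPM + 1 that is used for all log2 ratios below. Its 95% counting interval, which is computed from the split of the reads without the added 1 and covers counting error only, was 0.98 to 1.13. The EGFP transcript was not analysed here.

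The sequences that lie upstream of the gene whose promoter drives the reporter and of a retinoic acid target, Stra8, are shown as examples. Their transcripts order with the gates, and both sequences hold the motif marked in them. Each is the 250 bases before the annotated start from RefSeq (GRCm38.p6, Pou5f1 at chr17:35505782-35506031 and Stra8 at chr6:34920698-34920947, both on the plus strand), and capitals mark the letters AGGTCA, the core recognised by many nuclear receptors, searched on both strands as AGGTCA or TGACCT.
Pou5f1: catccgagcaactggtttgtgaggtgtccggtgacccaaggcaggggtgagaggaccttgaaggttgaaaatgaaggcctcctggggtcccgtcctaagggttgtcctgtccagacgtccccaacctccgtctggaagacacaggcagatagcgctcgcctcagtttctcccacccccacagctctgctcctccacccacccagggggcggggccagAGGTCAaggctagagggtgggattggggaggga
Stra8: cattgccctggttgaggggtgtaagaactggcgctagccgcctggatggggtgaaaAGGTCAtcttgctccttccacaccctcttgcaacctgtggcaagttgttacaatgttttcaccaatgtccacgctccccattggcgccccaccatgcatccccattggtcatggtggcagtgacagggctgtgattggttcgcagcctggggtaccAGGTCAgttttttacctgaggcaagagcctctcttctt
Pou5f1 held 1 match, at position -33 from the start, and Stra8 held 2. The motif was present in 14.0% of all 32851 promoters of this length and in 3 of the 25 promoters matched to genes of the spermatogonial differentiation list, so a match describes these letters only.

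Of 27128 genes in the deposited tables, 14301 averaged 1 CPM or more across the 12 libraries and were compared. At least 2-fold higher in GFP-high were 189 genes (1.32%), and 218 (1.52%) were at least 2-fold lower, 407 (2.85%) in all. With a pseudocount of 5 in place of 1 the counts were 24 higher and 74 lower. Counting intervals left out no change for each of the 407, and for 5562 of all 14301 genes. The median log2 ratio over all genes was -0.00, with 49.4% of genes above 0 and the 5th and 95th percentiles at -0.54 and 0.62. Depth was 12019651 expected counts in GFP-mid and 8774041 in GFP-high, within a range of 4335185 to 12019651 over the 12 libraries, and 3 counts stood for 0.238 and 0.319 CPM. Across genes, the log2 levels of the 2 libraries had a Pearson correlation of 0.98, a description over genes of 2 libraries.

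**Figure D1:**
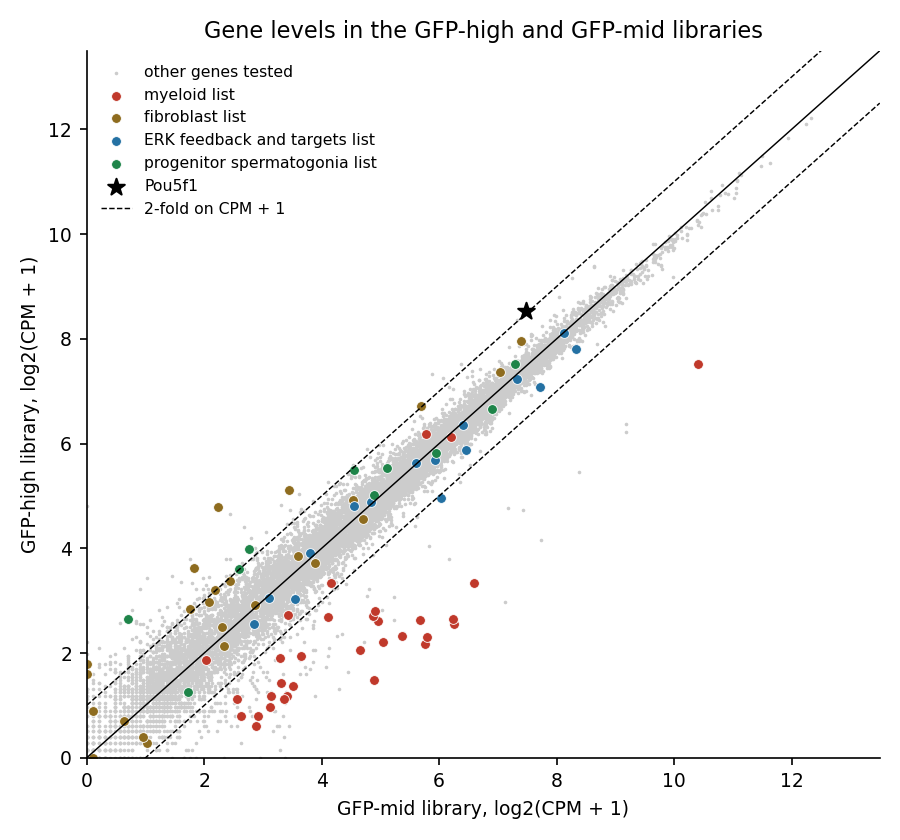
Level of each of the 14301 genes compared in the GFP-mid (x axis) and GFP-high (y axis) libraries, as log2 of CPM + 1; the solid line is equality and the dashed lines are 2-fold. Of the 32 myeloid list genes past the filter (red), 27 lie below the lower dashed line and 5 do not, and Pou5f1 (star) lies at the upper one.

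Genes of myeloid cells made up the lower end of the comparison. Of the 40 genes on the myeloid list, 32 passed the filter on low levels, and 27 of these fell at least 2-fold in GFP-high while none rose, against 1.52% and 1.32% of all genes. The median log2 ratio of the 32 was -2.16. Among all 40 matched genes, 30 were at least 2-fold lower. Summed over the list, the level was 2422 CPM in GFP-low, 2251 in GFP-mid and 426 in GFP-high, and 140 to 208 in the 9 unsorted libraries. GFP-high was therefore the lowest of the 3 gates and still above every unsorted library. In bulk RNA, fewer cells of a type and less RNA per cell cannot be told apart.

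The 3 subunits of C1q, the recognition molecule of the classical complement pathway, were among the defining markers that fell most. C1qa was at 38.7 CPM in GFP-low, 53.2 in GFP-mid and 3.50 in GFP-high, a fall of 15.2-fold from mid to high (counting interval 10.7 to 22.3). C1qc stood at 53.5, 75.2 and 4.88 CPM, 15.4-fold lower in GFP-high than in GFP-mid. C1qb stood at 81.6, 95.6 and 9.13 CPM, a 10.5-fold difference. All 3 were at or below 2.41 CPM in each unsorted library, so higher levels were seen in the sorted libraries only, and GFP-high held the least of the 3 gates.

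The receptors and effectors of macrophages fell with them. Csf1r, the receptor for the macrophage growth factor CSF1, was at 52.5, 50.3 and 5.20 CPM, which is 9.67-fold lower in GFP-high than in GFP-mid (7.22 to 13.2). Mpeg1, a pore-forming protein of macrophages, was at 66.7, 54.3 and 3.93 CPM, 13.8-fold lower (9.93 to 19.8). Lyz2 (Lyzs in the table), the lysozyme of myeloid cells, was the most abundant of the defining markers at 1524, 1353 and 182 CPM, a 7.42-fold fall (7.06 to 7.80). Per length it stood at 2073 TPM in GFP-mid against 299 in GFP-high, and at 0.0814 to 30.2 CPM in the unsorted libraries. Lyz1 and Lyz2 are close copies, so the division of reads between them is uncertain. Adgre1 (Emr1, the F4/80 antigen) stood at 31.0, 31.8 and 3.61 CPM. Tyrobp, a signalling adaptor, stood at 33.0, 24.2 and 3.18 CPM. Ptprc (CD45), the pan-leukocyte phosphatase, was lower in absolute terms, at 8.15, 9.66 and 1.27 CPM. The same held for Spi1 (Sfpi1), which encodes the lineage factor PU.1, at 9.03, 7.84 and 1.27 CPM. The unsorted libraries reached 2.98 CPM for Ptprc and 1.37 for Spi1, so GFP-high lay within their range for both genes.

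Taken as a set of 10 defining markers, all 10 were lower in GFP-high, by 6.15-fold to 15.4-fold with a median of 9.24-fold, and none was at 0 counts. Their summed level was 1898 CPM in GFP-low, 1755 in GFP-mid and 218 in GFP-high, 8.04-fold lower in GFP-high than in GFP-mid. In the unsorted libraries the sum ranged from 0.169 to 39.1 CPM. From GFP-low to GFP-mid the same markers had ratios of 0.735 to 1.404. That comparison shares the GFP-mid library with the main one, so the 2 sets of ratios are given side by side only.

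**Figure D2:**
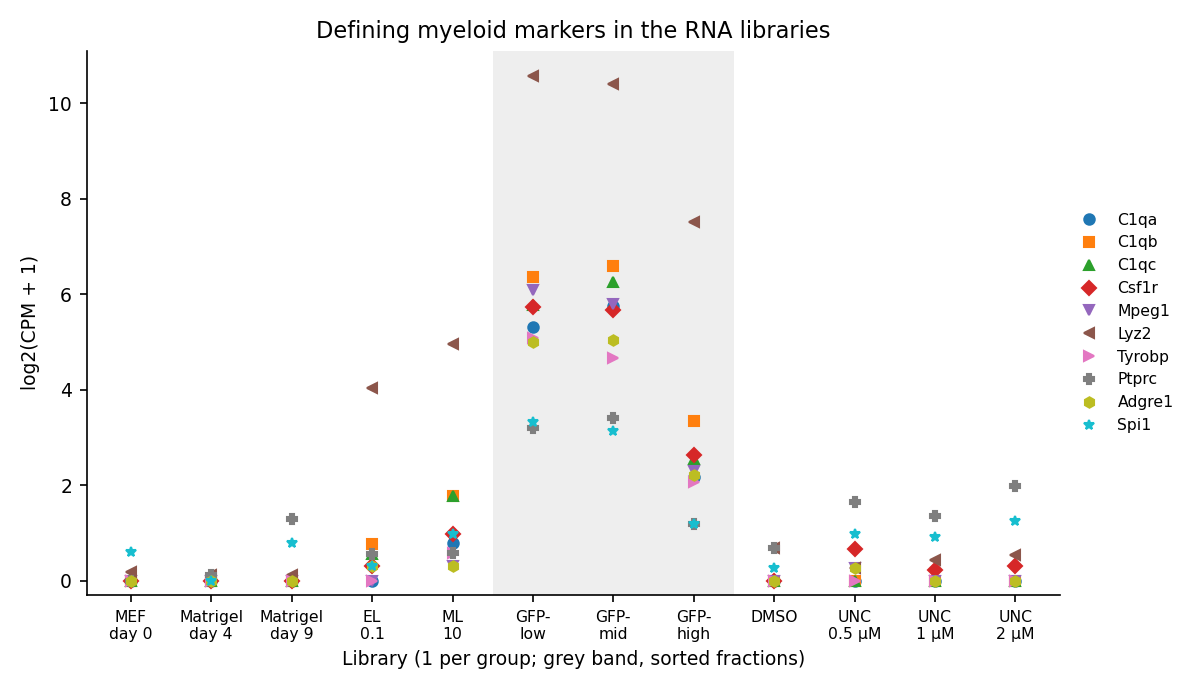
Level of the 10 defining myeloid markers, as log2 of CPM + 1 (y axis), in each of the 12 RNA libraries (x axis, 1 library per group); the grey band marks the sorted fractions. The markers lie together in GFP-low and GFP-mid, lower in GFP-high, and near 0 in most unsorted libraries, with Lyz2 the highest throughout the sorted fractions.

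Promoters of 3 of these genes are shown as examples that hold the motif marked in them. All 10 defining markers fell, so the fall does not set these 3 apart. They are the 250 bases before the start (RefSeq, GRCm38.p6) of C1qc at chr4:136892915-136893164, C1qb at chr4:136886201-136886450 and Lyz2 at chr10:117282273-117282522, each on the minus strand and written 5′ to 3′ in the direction of transcription. Capitals mark ACTTCCT, the reverse complement of AGGAAGT, a motif bound by PU.1 and other ETS factors.
C1qc: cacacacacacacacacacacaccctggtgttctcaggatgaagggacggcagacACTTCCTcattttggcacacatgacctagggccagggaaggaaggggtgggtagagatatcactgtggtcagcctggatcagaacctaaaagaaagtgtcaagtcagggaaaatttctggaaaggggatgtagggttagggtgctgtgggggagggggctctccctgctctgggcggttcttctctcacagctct
C1qb: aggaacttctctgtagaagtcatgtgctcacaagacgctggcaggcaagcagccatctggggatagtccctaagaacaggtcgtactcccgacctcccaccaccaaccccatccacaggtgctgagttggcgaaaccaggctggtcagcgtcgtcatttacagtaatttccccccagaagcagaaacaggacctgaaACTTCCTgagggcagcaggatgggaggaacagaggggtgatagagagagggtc
Lyz2: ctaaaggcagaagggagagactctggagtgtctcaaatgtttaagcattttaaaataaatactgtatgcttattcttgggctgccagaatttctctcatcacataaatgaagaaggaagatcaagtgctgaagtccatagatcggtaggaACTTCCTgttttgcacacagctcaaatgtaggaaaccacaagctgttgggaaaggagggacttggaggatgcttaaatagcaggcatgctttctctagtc
The match lies at position -195 in C1qc, -53 in C1qb and -100 in Lyz2. On both strands the motif was found in 9 of 37 promoters matched to the myeloid list (24.3%), in 7.69% of all 32851 promoters, in none of 25 promoters of the spermatogonial differentiation list, in 2 of 13 of the progenitor list (15.4%) and in 1 of 23 of the undifferentiated list (4.35%). A match describes these letters only, and any part of the motif in the falls was not tested.

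Most other members of the myeloid list also fell. Ctss, a lysosomal protease of antigen-presenting cells, fell from 74.2 to 5.31 CPM, and F13a1, a coagulation factor chain of macrophages, from 28.6 to 1.80 CPM. Cybb, the catalytic subunit of the phagocyte oxidase, fell from 28.4 to 5.52 CPM, and Trem2, a lipid receptor, from 6.34 to 0.531 CPM. The 5 tested exceptions were Lcp1 (16.8 and 9.13 CPM, log2 ratio -0.81), Mrc1 (9.74 and 5.63 CPM, -0.70), Csf2ra (-0.16), Coro1a (72.6 and 69.0 CPM, -0.07) and Irf8 (53.8 and 71.5 CPM, 0.40). Coro1a and Irf8 were also at 27.7 to 60.6 and 36.2 to 110 CPM in the unsorted libraries. The 10 defining markers together summed to 0.169 to 39.1 CPM there, with Lyz2 at up to 30.2 CPM. Coro1a and Irf8 therefore do not separate the myeloid signal in these data.

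Of the 12 genes with the lowest ratios, 8 are on the myeloid list. Cxcl13, a B cell chemokine that macrophages can make, had the lowest log2 ratio of the 12 on CPM + 1 (-4.13). It was at 115 CPM in GFP-low, 138 in GFP-mid and 6.90 in GFP-high, with no counts in the unsorted libraries. By plain CPM it was 19.96-fold lower in GFP-high (15.6 to 26.0), less than Clec4a2 and LOC100042018 below. Saa3, an acute phase protein, stood at 162, 213 and 16.9 CPM, a 12.6-fold fall from mid to high, but reached 421 CPM in an unsorted library. Clec4a2, a lectin receptor, had 111 counts in GFP-mid and 1 in GFP-high, 82.8-fold with a counting interval of 14.6 to 3300. Laptm5, a lysosomal protein of blood cells, fell from 40.5 to 4.03 CPM. LOC100042018 is a predicted locus that had 118 counts in GFP-mid and none in GFP-high or GFP-low, at least 29.3-fold lower against a floor of 3 counts per library, and its reads may be shared with copies elsewhere.

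When genes under 1 CPM in every unsorted library were left out, the lowest 12 also took in Apoe, Selenop and Hp. Apoe, a lipid carrier made in quantity by macrophages, was at 425, 582 and 73.2 CPM, and per length at 1054 TPM in GFP-mid and 142 in GFP-high, 7.95-fold lower by CPM (7.35 to 8.61). Selenop (Sepp1), a selenium transport protein, was at 293, 334 and 43.2 CPM, 7.74-fold lower. Hp, haptoglobin, fell from 41.2 to 4.25 CPM. C3ar1, the receptor for complement fragment C3a, had 85 counts in GFP-mid and none in GFP-high, at least 21.1-fold lower. P2ry6, a nucleotide receptor, had 3 counts in GFP-high and was 29.1-fold lower (9.71 to 143).

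On the acute phase and chemokine list, 5 of 14 genes past the filter fell and 1 rose, against 1.52% and 1.32% of all genes, with a median of -0.10. The falls were in Saa3, Hp, C3 (26.4 to 7.54 CPM), the iron-binding lipocalin Lcn2 (24.3 to 3.18 CPM) and the chemokine Ccl6 (8.47 to 0.531 CPM). The rise was in Cebpb, a transcription factor of acute phase genes, from 5.23 to 12.2 CPM with no counts in GFP-low (log2 ratio 1.08, and 0.75 with a pseudocount of 5). Of 18 interferon-induced genes, 0 passed 2-fold in either direction, and their median was -0.08.

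A wider set was drawn without the ratio of GFP-high to GFP-mid, though after levels had been seen: 58 genes whose level in GFP-low was at least 4-fold (on CPM + 1) above the highest of the 9 unsorted libraries. The filter on mean level takes in GFP-mid, so membership leans towards genes that are high there. Aoah, for instance (9.66, 4.20 and 0.637 CPM in the gates, no counts elsewhere), passed only with its GFP-mid reads included. The shares that follow therefore describe the set and do not test it. Of the 58, 51 fell in GFP-high and none rose, against 1.52% and 1.32% of all genes, with a median of -2.19, and 20 of them are on the myeloid list. Beyond that list the set held Chil3 (Chi3l3, a secreted chitinase-like protein; 719, 583 and 82.3 CPM), the scavenger receptor Marco (190, 172 and 25.7 CPM), the mitochondrial carrier Ucp2 (44.8, 36.4 and 5.20 CPM) and properdin, Cfp (34.6, 31.5 and 6.05 CPM). The 7 that did not pass were Npm3 (log2 ratio -0.74), T (-0.68), Clec4e (-0.49), Emd (-0.42), Copg2 (-0.32) and the predicted loci LOC434130 (0.07) and LOC100042970 (0.24). These 58 genes held 51 of the 218 falls.

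Genes that define germ cells were at similar levels in both gates. All 20 genes on the germ cell identity list passed the filter, none was 2-fold different, and the median log2 ratio was -0.05. With 2.85% of all genes called, a count of 0 in a list of this length is near the background, so the values carry the description. Dazl, an RNA-binding protein needed for germ cell development, was at 1721 CPM in GFP-mid and 1481 in GFP-high, and Ddx4, a germline RNA helicase, at 640 and 589 CPM. The ends of the range were Gtsf1 (1700006H03Rik, a cofactor of piRNA proteins; 110 and 89.3 CPM, -0.29) and Piwil4 (13.1 and 16.2 CPM, 0.29). Summed over the list the level was 6182 CPM in GFP-mid and 5995 in GFP-high, inside the 4725 to 8411 of the unsorted libraries. Genes detected at 10 CPM or more in all 9 unsorted libraries, 7953 in all and chosen after values had been seen, had 16 rises (0.201%) and 7 falls (0.0880%), against 1.32% and 1.52% of all genes, with a median of -0.02. The level cut differs from that of all genes: with a filter at a mean of 10 CPM, 55 of 9598 genes rose and 45 fell.

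**Figure D3:**
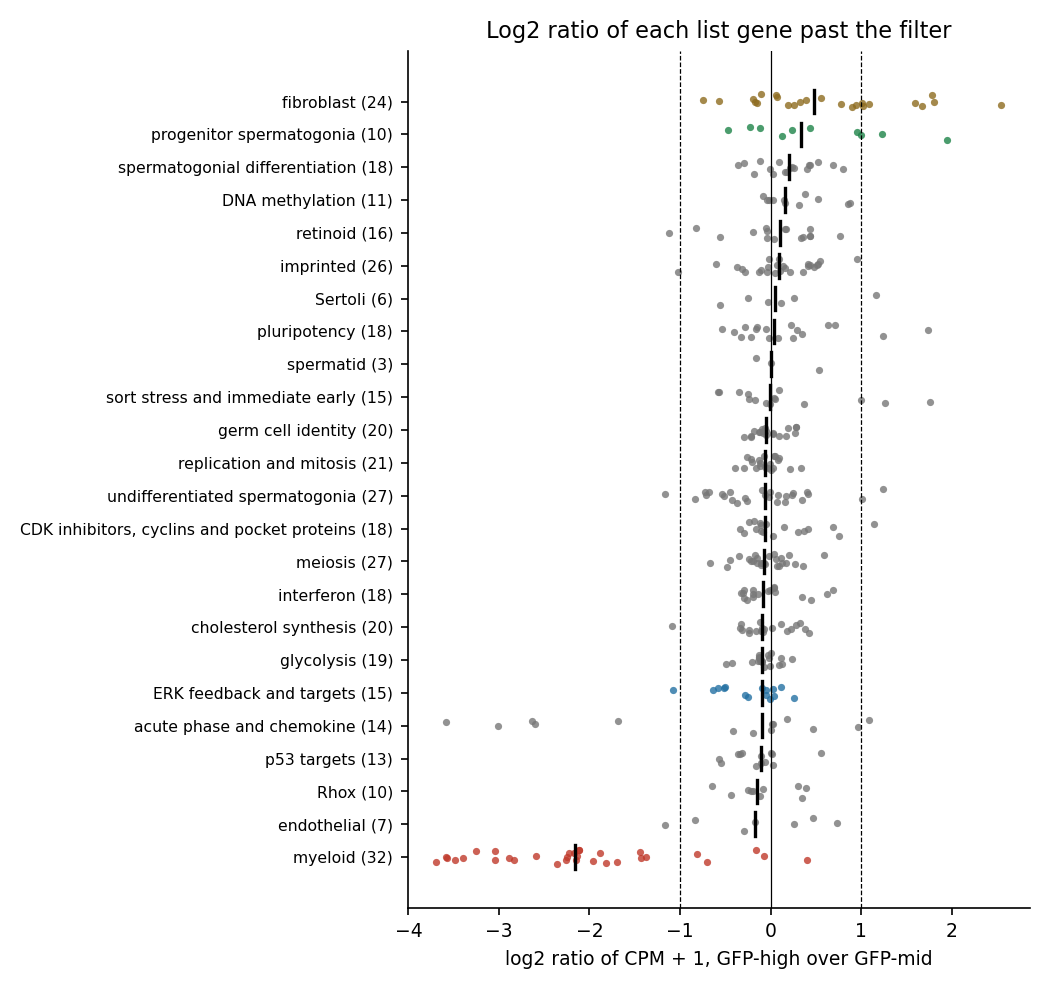
Log2 ratio of GFP-high to GFP-mid (x axis, CPM + 1) of every list gene past the filter, with the number of genes in parentheses; bars are list medians and dashed lines 2-fold. The myeloid list has its median at -2.16, the fibroblast list at 0.47 and the progenitor list at 0.33, while the germ cell identity list lies between -0.29 and 0.29.

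The genes of undifferentiated spermatogonia moved in both directions. Of 27 past the filter, 2 rose (1.32% of all genes did), 1 fell (1.52%) and 24 were under 2-fold, with a median of -0.07. Foxo1, a transcription factor needed for stem cell maintenance, was at 75.4 CPM in GFP-low, 184 in GFP-mid and 372 in GFP-high, a ratio of 2.02-fold (log2 ratio 1.01, 0.94 to 1.09), and at 94.9 to 178 CPM in the unsorted libraries. GFP-high was the highest of all 12 libraries for this gene, as for Pou5f1. With a pseudocount of 5 its ratio stood just under 2-fold. Utf1, a chromatin factor of undifferentiated cells, was at 2.01, 5.62 and 14.6 CPM, 2.61-fold higher in GFP-high than in GFP-mid (log2 ratio 1.24, 0.96 to 1.82). Plvap, a membrane protein that marks a subset of stem spermatogonia and also endothelium, fell from 47.2 to 20.5 CPM (log2 ratio -1.17, -1.45 to -0.97), and was at 86.8 CPM in GFP-low. None of the 5 defining endothelial markers passed 2-fold on the log2 scale of CPM + 1. By plain CPM, Kdr was 2.24-fold lower in GFP-high (3.80 and 1.70 CPM, log2 ratio -0.83), and Cdh5 was near the floor at 0.0792 and 1.06 CPM (0.93). The sum of the 5 was 16.5 CPM in GFP-mid and 18.6 in GFP-high.

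The GDNF receptors had values below those of GFP-mid without passing 2-fold. Gfra1 was at 176 CPM in GFP-low, 79.9 in GFP-mid and 58.5 in GFP-high (log2 ratio -0.44, -0.60 to -0.30). Ret was at 705, 408 and 316 CPM (-0.37, -0.44 to -0.30). Both ordered against Pou5f1 over the 3 gates, and for both the step from low to mid was larger than that from mid to high. Other genes with stem cell roles had ratios of the same sign and under 2-fold: the transcription factors Egr2 (103 and 57.3 CPM, -0.84) and T (5.38 and 2.97 CPM, -0.68), the neurofilament Nefm (34.5 and 20.6 CPM, -0.72), the tetraspanin Tspan8 (18.1 and 10.6 CPM, -0.72), Tcl1, a cofactor of AKT (91.5 and 62.6 CPM, -0.54), the translational regulator Nanos2 (15.0 and 10.9 CPM, -0.43) and the repressor Bcl6b (211 and 173 CPM, -0.29). Id4, Zbtb16 and Sall4, which are also used as markers of this state, had ratios of 0.17, 0.09 and -0.02. The list thus did not have a common direction.

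Targets and feedback inhibitors of ERK signalling, the pathway downstream of GDNF and bFGF, had a median of -0.10 over 15 genes, with 1 fall and no rise, against 1.52% and 1.32% of all genes. The fall was in Spry4, an inhibitor of receptor tyrosine kinase signalling, at 133 CPM in GFP-low, 64.7 in GFP-mid and 30.0 in GFP-high (log2 ratio -1.08, -1.31 to -0.91). Its ratio was -0.96 by deposited TPM and -0.99 after adding 5 in place of 1, both short of 2-fold. The phosphatases Dusp6 (210 and 135 CPM, -0.64) and Dusp4 (10.7 and 7.22 CPM, -0.51) and the GDNF-responsive factor Etv5 (319 and 222 CPM, -0.52) had counting intervals below 0. Egr1, an immediate early target, was at 277 and 276 CPM.

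Progenitor genes were among the rises. Of 10 genes on that list, all past the filter, 3 rose and none fell, against 1.32% of all genes rising, and the median was 0.33. Summed over the list, the level was 375 CPM in GFP-low, 432 in GFP-mid and 493 in GFP-high, against 433 to 606 in the unsorted libraries. Neurog3, a transcription factor of progenitor spermatogonia, was at 4.76 CPM in GFP-low, 5.78 in GFP-mid and 14.9 in GFP-high, 2.57-fold higher than in GFP-mid (log2 ratio 1.23, 0.94 to 1.79). That level is within the 4.59 to 17.8 CPM of the unsorted libraries, so GFP-high stood out from the other gates and not from the unsorted cultures. Sox3, a transcription factor of the same stage, had no counts in GFP-low, 8 in GFP-mid and 50 in GFP-high, which is 0.633 and 5.31 CPM (8.38-fold, log2 ratio 1.95), and at most 3.14 CPM in the unsorted libraries. Nanos3, a translational regulator, was at 5.39, 5.07 and 11.1 CPM (log2 ratio 1.00, 0.68 to 1.61). Its unsorted levels were 7.51 to 26.4 CPM with a median of 14.8. GFP-high thus lay inside the unsorted range, and GFP-low and GFP-mid lay below it. Nanos3 passed 2-fold narrowly and lay at 0.99 when the fibroblast list was left out of the library size. With a pseudocount of 5 in place of 1, the 3 rises of the list were all short of 2-fold: Neurog3 stood at 0.88, Sox3 at 0.87 and Nanos3 at 0.68. Utf1 stood at 0.89 at that setting. Upp1, uridine phosphorylase, was at 12.2, 22.3 and 44.1 CPM (log2 ratio 0.95), and the retinoic acid receptor Rarg at 22.4, 33.4 and 45.5 CPM (0.44).

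Several genes of spermatogonial differentiation ordered with the gates but none passed 2-fold: 0 of 18 rose or fell, against 2.85% of all genes, with a median of 0.20 and 13 of 18 ratios above 0, against 49.4% of all genes. Kit, the receptor that marks differentiating spermatogonia and by whose absence the founding cells were sorted, was at 62.3 CPM in GFP-low, 74.3 in GFP-mid and 130 in GFP-high (1.75-fold, log2 ratio 0.80, 0.68 to 0.93). Its highest unsorted level was 78.5 CPM, so GFP-high was above all other libraries. Stra8, the retinoic acid target whose promoter is shown above, was at 67.2, 133 and 179 CPM (log2 ratio 0.42, 0.33 to 0.52), against 12.7 to 64.8 CPM in the unsorted libraries. Per length, Stra8 stood at 172 TPM in GFP-mid and 247 in GFP-high and Kit at 25.02 and 46.5. Dnmt3b, a de novo DNA methyltransferase, was at 102 and 147 CPM (0.52), Crabp1, a retinoic acid binding protein, at 96.9 and 132 CPM (0.44), and the homeobox gene Esx1 at 10.5 and 17.6 CPM (0.69). Ccnd2, a cyclin of this list, had the opposite sign at 681 and 557 CPM (-0.29).

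**Figure D4:**
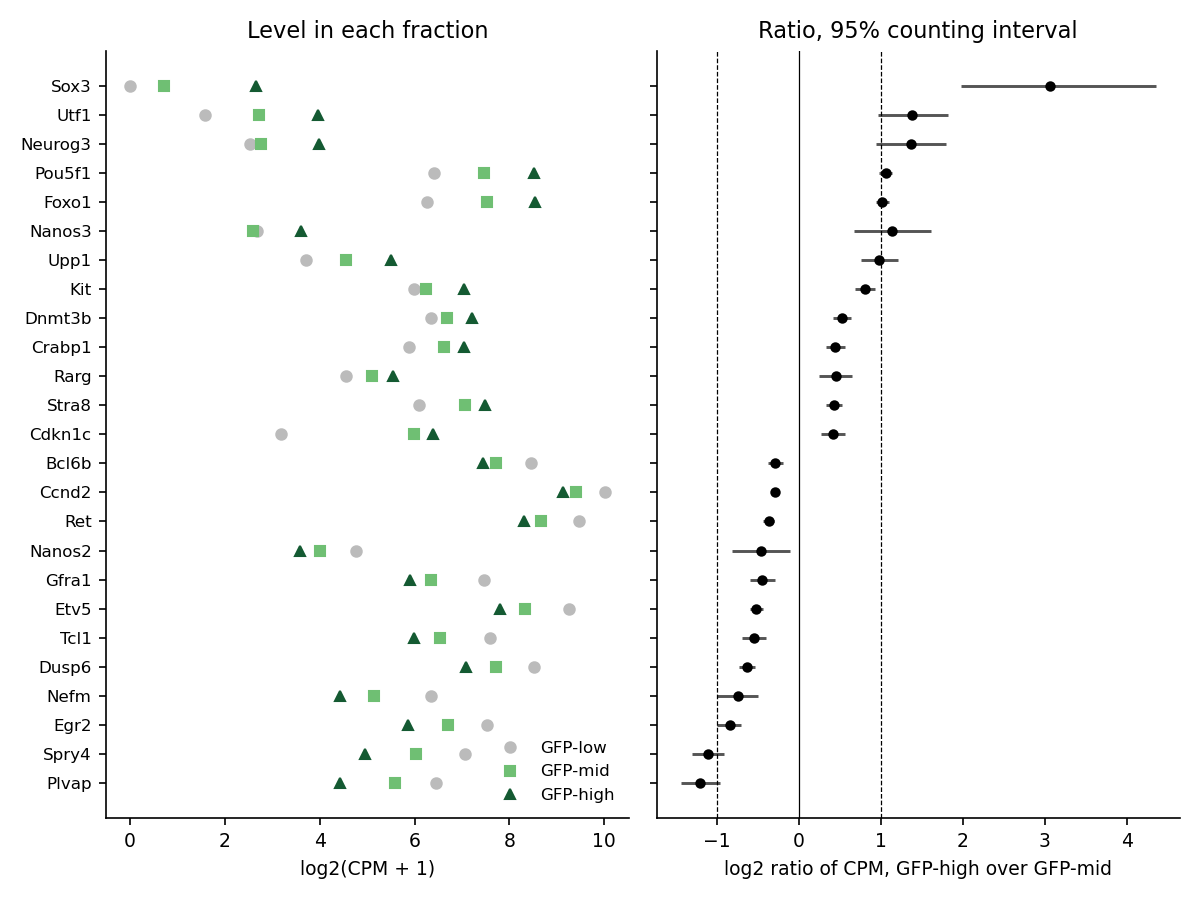
Left, level of 25 spermatogonial genes in the 3 gates as log2 of CPM + 1; right, log2 ratio of GFP-high to GFP-mid computed from the reads without the added 1, with the 95% counting interval as a bar and 2-fold as dashed lines. Pou5f1, Foxo1, Neurog3 and Sox3 lie to the right of or at the upper 2-fold line, Kit and Stra8 between 0 and that line, and Plvap and Spry4 at the lower one.

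Retinoid pathway genes, which make, carry and read retinoic acid, had 1 fall and no rise among 16, against 1.52% and 1.32% of all genes, with a median of 0.10. The fall was in the retinaldehyde dehydrogenase Aldh1a3, from 9.03 to 3.61 CPM (log2 ratio -1.12), and it did not pass on the deposited TPM (-0.93) or with a pseudocount of 5 (-0.70). Another enzyme of the same step, Aldh1a2, was at 33.3 and 43.0 CPM (0.36). The retinaldehyde reductase Dhrs3 was at 25.1 and 13.8 CPM (-0.82) and the receptor Rxrg at 5.07 and 9.34 CPM (0.77). Cyp26a1 and Cyp26b1, which degrade retinoic acid, were at 3.93 CPM or less in both gates.

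Cdkn1c, the imprinted cell cycle inhibitor p57, was at 8.15 CPM in GFP-low, 62.3 in GFP-mid and 83.2 in GFP-high (log2 ratio 0.41, 0.27 to 0.56). The GFP-high library was 1.34-fold above GFP-mid, and the large gap lay below GFP-mid. Unsorted libraries ranged from 15.5 to 86.4 CPM, with the highest in the unsorted culture at the same Matrigel density. Of 18 genes for cyclins, their kinases, inhibitors and pocket proteins, 1 rose and none fell, against 1.32% and 1.52% of all genes: the kinase Cdk6, from 2.53 to 6.79 CPM (log2 ratio 1.14, and 0.65 with a pseudocount of 5). None of 21 replication and mitosis genes passed 2-fold (median -0.06), where 2.85% of all genes did. The proliferation marker Mki67 was at 102 and 130 CPM (0.34) and the ribonucleotide reductase subunit Rrm2 at 90.5 and 68.6 CPM (-0.40). Of 26 imprinted genes, 1 fell, against 1.52% of all genes. It was Asb4, from 1.90 to 0.425 CPM, a level close to the floor, and its ratio was -0.70 by TPM and -0.35 after adding 5 in place of 1.

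Meiotic genes had 0 of 27 past 2-fold and a median of -0.07. With 2.85% of all genes past 2-fold, this count and those of the other short lists here are near the background. Sycp3 and Sycp1, proteins of the synaptonemal complex, were at 171 and 151 CPM and at 214 and 187 CPM. Of 12 spermatid genes, 3 passed the filter and none differed 2-fold. The protamines Prm1 and Prm2 had no counts in either gate. Rhox homeobox genes (10, median -0.16) and DNA methylation genes (11, median 0.16) had none past 2-fold. The maintenance factor Uhrf1 was at 486 and 460 CPM.

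On the pluripotency list, which shares Utf1 with the undifferentiated list, 2 of 18 genes rose and none fell, against 1.32% and 1.52% of all genes, with a median of 0.03. The other rise was Klf2, a zinc finger factor of naive pluripotency, at 1.63 CPM in GFP-low, 2.06 in GFP-mid and 9.24 in GFP-high (4.49-fold, log2 ratio 1.74, 1.52 to 2.86). Its highest unsorted level was 2.66 CPM, so GFP-high was above all other libraries. Sox2 was at 29.2 and 21.9 CPM (-0.40), Nanog at 2.77 and 2.02 CPM (-0.32) and Klf4 at 17.5 and 15.0 CPM (-0.21). Genes that respond early to stimulation or to cell sorting had 2 rises among 15, against 1.32% of all genes, and a median of -0.01: Gadd45b, from 7.29 to 18.9 CPM (1.26, and 0.96 with a pseudocount of 5), and the heat shock gene Hspa1b, from 2.69 to 11.5 CPM, whose reads can be shared with its near-identical copy Hspa1a (22.1 and 45.0 CPM, 0.99). Fos and Junb on the same list were at 87.3 and 58.0 CPM (-0.58) and 23.8 and 15.7 CPM (-0.57).

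Matrix and fibroblast genes were among those with the highest ratios. Of 24 past the filter, 8 rose and none fell, against 1.32% and 1.52% of all genes, with a median of 0.47. Summed over the list, the level was 499 CPM in GFP-low, 468 in GFP-mid and 717 in GFP-high, below the 754 to 14641 of the unsorted libraries. Fbln2, a matrix glycoprotein, was at 3.01 CPM in GFP-low, 3.72 in GFP-mid and 26.6 in GFP-high, 7.16-fold higher than in GFP-mid (log2 ratio 2.55, 2.39 to 3.32), against 19.7 to 2075 CPM in unsorted libraries. The collagen chains Col1a2 and Col1a1 rose from 2.53 to 11.4 CPM and from 50.9 to 104 CPM, and the matricellular protein Sparc from 9.90 to 33.8 CPM. Dcn and Loxl1, a proteoglycan and a collagen cross-linking enzyme, had no counts in GFP-mid and were at 2.02 and 2.44 CPM in GFP-high, at least 8.49-fold and at least 10.3-fold higher. With a pseudocount of 5, only Fbln2, Col1a2 and Sparc of the 7 rises followed still passed 2-fold, and Col1a1 (0.97), Col3a1 (0.62), Pdgfrb (0.60) and Loxl1 (0.57) did not. Col3a1 (0.86) and Pdgfrb (0.83) were also short of it by TPM. Dcn was not computed at other settings. Of the 7 defining fibroblast markers, Lum was at 0 counts in GFP-high and Dcn in GFP-mid, and Pdgfra was at 25.2 and 22.6 CPM (-0.15). Within the 3 gates, GFP-high was the highest for most of these genes, and for Fbln2 GFP-low and GFP-mid lay close together.

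Of the 12 genes with the highest ratios, most others had the same pattern of levels. Adamts5, an aggrecan-cleaving protease, had no counts in GFP-low or GFP-mid and 60 in GFP-high (6.37 CPM, at least 26.8-fold higher). Csf1, the ligand of Csf1r, was at 1.63, 1.03 and 9.77 CPM, 9.49-fold higher in GFP-high than in GFP-mid (log2 ratio 2.41), while its receptor fell as given above. The unsorted libraries held Csf1 at 10.3 to 429 CPM. Prss23, a secreted protease (0.871 and 8.39 CPM), Anxa1, a phospholipid-binding protein (4.43 and 24.2 CPM), the proteoglycan Bgn (2.38 and 12.9 CPM) and the matricellular protein Ccn1 (Cyr61; 1.74 and 10.1 CPM) also rose. Each of the 4 had its highest level of the series in the unsorted culture at 10 µg/cm2 Matrigel, from 269.9 to 905.2 CPM. Stx11, a syntaxin of vesicle fusion, rose from 0.713 to 6.05 CPM (log2 ratio 2.04, and 0.95 with a pseudocount of 5). The predicted locus LOC100041932 had no counts in GFP-mid, 226 in GFP-low and 256 in GFP-high, so it did not order with the gates.

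**Figure D5:**
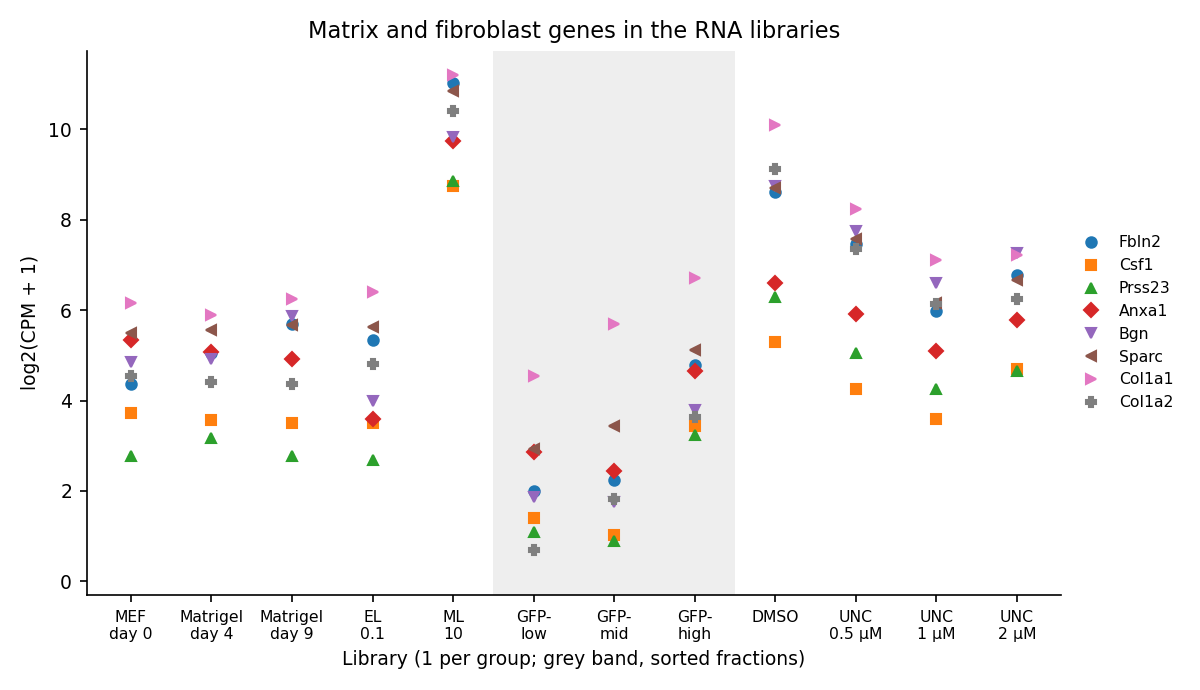
Level of 8 matrix, fibroblast and secreted genes (Fbln2, Csf1, Prss23, Anxa1, Bgn, Sparc, Col1a1 and Col1a2), as log2 of CPM + 1 (y axis), in each of the 12 RNA libraries (x axis, 1 library per group); the grey band marks the sorted fractions. GFP-high lies above GFP-low and GFP-mid for each gene, and the unsorted culture labelled ML lies far above all others.

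Markers of the other somatic cell types of the testis were near the floor. The 5 defining Sertoli markers summed to 3.41 CPM in GFP-mid and 4.99 in GFP-high. Of these Sox9, the transcription factor of that lineage, rose from 0.633 to 2.65 CPM (log2 ratio 1.16), which did not pass on the deposited TPM (0.79) or with a pseudocount of 5 (0.44), and Amh was under 3 counts in both libraries. Of 4 defining Leydig markers, Cyp17a1 and Insl3 had no counts in either gate, and only Star, the mitochondrial cholesterol carrier, was visible at 9.42 and 10.9 CPM. In the gates compared, the fibroblast sum was thus 1.53-fold higher and the myeloid sum 5.29-fold lower in GFP-high. The part of these cell types in the differences of germ cell genes was not tested.

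To look past genes found in the sorted libraries alone, genes were then restricted to those at 10 CPM or more in all 9 unsorted libraries and not at least 4-fold higher in the ML than in the EL culture, a choice made after values had been seen. Of 7863 such genes, 8 rose (0.102%) and 6 fell (0.0763%), against 1.32% and 1.52% of all genes, with a median of -0.02. All genes include low ones, which pass 2-fold more often. With a filter at a mean of 10 CPM, 55 of 9598 genes rose and 45 fell. Pou5f1 and Foxo1 were among the 8 rises. The largest on CPM + 1 was Arf6, a small GTPase of endocytic traffic, at 19.3 CPM in GFP-low, 58.1 in GFP-mid and 160 in GFP-high (2.76-fold, log2 ratio 1.45, 1.33 to 1.59), against at most 49.5 CPM in the unsorted libraries. Slc7a5, a transporter of large neutral amino acids, was at 97.3, 160 and 325 CPM (1.02, 0.94 to 1.11). Clstn1, a calsyntenin, rose from 66.4 to 152 CPM, Ptov1 from 81.7 to 183 CPM and Galnt10, which starts mucin-type glycans, from 22.2 to 47.2 CPM. The last of the 8, the predicted locus LOC671392, had no counts in GFP-low, 14 in GFP-mid and 38 in GFP-high, which is 3.64-fold by plain CPM and 1.26 as a log2 ratio of CPM + 1. All 8 ordered with the gates. Of the 7 others, Foxo1 (0.996) and Galnt10 (0.94) did not pass 2-fold with a pseudocount of 5.

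The 6 falls in that set were Selenop, Spry4, Rpl27, Mpzl2 and the transcription factors Foxa2 and Barhl2. Selenop, whose values are given above with the lowest genes, is among the 58 genes raised in GFP-low and moved with the myeloid genes. Foxa2 was at 15.3 CPM in GFP-low, 7.29 in GFP-mid and 1.91 in GFP-high (log2 ratio -1.51, -2.75 to -1.19), against 15.0 to 50.3 CPM in the unsorted libraries. Barhl2 was at 28.8, 12.4 and 5.31 CPM (-1.09). Mpzl2 (Eva1), an adhesion protein, was at 141, 48.5 and 23.1 CPM (-1.04). These 3 ordered against Pou5f1 over the gates, as did Spry4. Rpl27, a ribosomal protein with processed copies elsewhere that can share its reads, was at 24.7, 80.5 and 37.3 CPM and did not. Barhl2, Rpl27, Mpzl2 and Spry4 were short of 2-fold on the deposited TPM, and Foxa2 (-0.83), Barhl2 (-0.76), Mpzl2 (-0.93) and Spry4 (-0.99) were so with a pseudocount of 5.

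Outside both the 58 genes raised in GFP-low and the 674 genes at least 4-fold higher in ML than in EL, 13569 genes remained, of which 127 rose (0.936%) and 118 fell (0.870%). The 674 genes held 62 rises and 49 falls, 9.20% and 7.27% of them, against 1.32% and 1.52% of all genes. The falls outside both sets still included further myeloid genes, such as Fcgr3 (29.0 to 5.94 CPM) and Cd68 (16.2 to 5.41 CPM), so the sets do not remove that signal completely. Pou5f1 was outside both sets. Among the undifferentiated, progenitor and ERK lists, the calls outside both sets were those given above for Foxo1, Utf1, Neurog3, Sox3, Nanos3, Plvap and Spry4.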

How the data were processed

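RNA was sequenced from 12 libraries, 1 per group, so no test between groups was made. The authors deposited 1 table per library that gives each gene an expected count, its TPM and its FPKM, per the file headers. FPKM was not used. The expected counts are RSEM's estimates after trimming with Trim Galore, with mm10 as the build, per the submitters' processing notes; the aligner and versions are not given in the sources used here. The deposited TPM correct for gene length and sum to a fixed total, per the file headers. RSEM divides reads shared by similar genes, and 8.52% to 10.7% of the genes of a library held a fractional value.

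Expected counts were rounded to whole numbers and scaled to CPM with TMM factors over the 12 libraries (edgeR 4.0.16, R 4.3.3). The factors were 1.0506 for GFP-mid and 1.0737 for GFP-high. Genes averaging 1 CPM or more across them were compared by the log2 ratio of CPM + 1, and called at 2-fold; the added 1 understates the change of low genes. Counting intervals (95%, Clopper-Pearson) describe how reads split between both libraries. Since PCR copies were not marked by molecular identifiers, these intervals and the floor of 3 counts cover counting error only. Named genes are the 12 highest and 12 lowest with at least 50 counts in the higher library, the 12 lowest again among genes seen outside the sort at 1 CPM or more, and any gene of 25 lists, of whose 488 entries 481 were matched. Genes of the 58 raised in GFP-low were named too. So were all calls, whatever their counts, among genes at 10 CPM or more in all 9 unsorted libraries and not at least 4-fold higher in ML than in EL. The members and lists were chosen with earlier results of these data known. Current symbols and promoters are from RefSeq (GRCm38.p6). Steps were tested on simulated data. Alternatives were DESeq2 1.42.0 size factors, total counts, deposited TPM, pseudocounts of 0.1 and 5, TMM over the 2 libraries, library sizes without the myeloid or the fibroblast list, 3 other filters, and a required counting interval. Further software was Python 3.11.15, matplotlib 3.10.9, scipy 1.17.1, pandas 2.3.3 and numpy 2.4.6.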

Additional observations from a re-analysis of the deposited data

How the results depend on the processing

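No paired analysis was possible because each fraction has 1 library. The counts of 189 higher and 218 lower genes moved by over 1.5 times under 3 of 12 alternatives: 491 and 437 with a pseudocount of 0.1, 24 and 74 with a pseudocount of 5, and 55 and 45 with a filter at 10 CPM, which tests fewer genes. The share of calls that were higher was 46.4%, and 24.5% with a pseudocount of 5. More calls were higher than lower with total counts (50.9%), deposited TPM (52.8%), a pseudocount of 0.1 (52.9%) and a filter at 10 CPM (55.0%). Under the other 9 the counts ranged from 176 to 238 higher and from 209 to 309 lower. The median over all genes shifted by 0.081 on the deposited TPM. Of 396 single genes followed, 85 were called, and none of these took the other sign under the scalings and pseudocounts tried, while some uncalled genes near 0, such as Coro1a and Egr1, did. Of the 85, 55 still passed 2-fold with a pseudocount of 5 (not, for instance, Foxo1, Col1a1, Spry4, Gadd45b and Cebpb), 76 on the deposited TPM and 83 without the fibroblast list in the library size. The myeloid median ranged from -2.73 (pseudocount 0.1) to -1.22 (pseudocount 5). The medians of several lists within 0.1 of 0, such as the undifferentiated list (-0.07, and 0.03 on the deposited TPM) and the germ cell identity list (-0.05, and 0.04), took the other sign with the scale. With 1 library a side, sorting, culture and library cannot be told apart from the gate, and a gene with no counts may stand at up to 0.238 CPM in GFP-mid or 0.319 in GFP-high.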
